A study of Homo sapiens with 18 samples.

Results

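This account covers 54 genes of mitosis and the kinetochore in HMC3 cells exposed to oxidized low-density lipoprotein (oxLDL). The genes were chosen by symbol, with earlier results of these data known, and 51 of them had a row in the table of 13992 genes. KIF15, KIFC1 and CENPN were not analysed here. HMC3 is an immortalized cell line derived from human microglia, the resident macrophages of the brain. oxLDL is a lipoprotein particle with oxidized lipids that macrophages take up through scavenger receptors. The cells received no oxLDL (0 µg/ml, the controls) or oxLDL at 100, 50, 10, 2.5 or 1 µg/ml for 24 h, with 3 RNA-seq libraries in each group. The comparisons of interest were among 0, 10, 50 and 100 µg/ml. Nothing in the labels states that replicates were grown separately. The p-values below therefore reflect only how much these samples differ from each other, which may be technical variation. HMC3 is 1 cell line, and nothing here extends beyond it.

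The labelled cell type was compared with its markers. Of 19 microglia and macrophage markers, few were among the rows analysed here. CD68, OLFML3 and CD14, which are only part of those rows and do not give the level of the whole list, had mean FPKM (fragment numbers normalized for gene length and library size) over the 18 libraries of 13.2, 1.02 and 0.869. Defining microglial genes such as CX3CR1, P2RY12, TMEM119, AIF1 and CSF1R were not among these rows. Pericyte and fibroblast markers included VIM at 728, FN1 at 596 and COL1A1 at 458 FPKM. Of the 12 markers in that list, 9 had a row and 8 passed the filter described below. The named genes are only part of it and do not give the level of the others. The depth per library, recovered from the steps between low FPKM values, ran from 13919066 to 37382244 reads. All 51 listed genes passed the filter of at least 0.5 FPKM in at least 3 libraries, as did 12127 genes of the whole table. A gene was called changed when its adjusted p from limma, corrected over all tested genes of a comparison, was under 0.05.

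Mitosis is driven by cyclin B bound to CDK1, which CDC25 phosphatases switch on. Polo-like and Aurora kinases then build the spindle, kinesins move and cross-link its microtubules, and the kinetochore ties each chromosome to them. The spindle checkpoint holds back the anaphase-promoting complex until every chromosome is attached, after which separase and the cytokinesis machinery divide the cell. Most of these genes are transcribed in G2 and M phase, under the MuvB complex with B-MYB (encoded by MYBL2) and FOXM1. Their RNA in a bulk sample therefore depends both on how many cells are in these phases and on the RNA per cell, and fewer such cells and less RNA per cell cannot be told apart in these data.

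Promoter sequences from RefSeq on GRCh38.p14 were matched for 46 of the 54 genes, each window running from 250 bases before to 50 bases after the start site. The windows were searched on both strands for the cell cycle homology region element (CHR, to which MuvB binds) and for CCAAT (to which NF-Y binds). The CHR was searched only as TTTGAA or TTCGAA. A promoter without a CHR match may therefore still hold the element in another spelling. A CHR match was present in 33 of 46 promoters (71.7%), against 16.6% of all 27305 promoters and 10.8% of the 9519 promoters of tested genes. A CCAAT match was present in 35 of 46 (76.1%), against 35.7% of all promoters and 37.0% of those of tested genes. Both were present in 28 of 46 (60.9%), against 6.58% and 4.77%. In the 4 promoters printed here no CHR match overlaps a CCAAT match, and a match is only a match of letters. The 250 bases before the start are shown for KIF20A, which had the largest decrease at 100 µg/ml among these genes, CCNB2 with the common arrangement of CHR and CCAAT, MYBL2 with neither, and PLK1 with both motifs but no called change. All are on the plus strand and read 5′ to 3′, and capitals mark the motif matches on either strand.
KIF20A: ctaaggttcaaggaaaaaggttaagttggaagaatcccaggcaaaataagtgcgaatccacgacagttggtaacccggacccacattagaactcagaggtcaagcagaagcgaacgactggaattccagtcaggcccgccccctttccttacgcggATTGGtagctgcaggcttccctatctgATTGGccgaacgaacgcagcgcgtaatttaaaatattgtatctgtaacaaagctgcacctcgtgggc
CCNB2: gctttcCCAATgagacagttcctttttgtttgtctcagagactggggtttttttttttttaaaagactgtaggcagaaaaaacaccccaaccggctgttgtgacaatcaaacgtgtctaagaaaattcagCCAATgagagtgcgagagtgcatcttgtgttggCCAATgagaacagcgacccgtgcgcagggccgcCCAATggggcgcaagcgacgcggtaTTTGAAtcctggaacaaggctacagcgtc
MYBL2: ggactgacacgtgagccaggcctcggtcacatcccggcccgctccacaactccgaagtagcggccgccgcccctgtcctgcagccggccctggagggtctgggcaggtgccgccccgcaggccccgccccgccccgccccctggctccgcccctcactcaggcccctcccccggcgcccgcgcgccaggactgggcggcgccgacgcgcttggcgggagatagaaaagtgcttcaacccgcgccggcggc
PLK1: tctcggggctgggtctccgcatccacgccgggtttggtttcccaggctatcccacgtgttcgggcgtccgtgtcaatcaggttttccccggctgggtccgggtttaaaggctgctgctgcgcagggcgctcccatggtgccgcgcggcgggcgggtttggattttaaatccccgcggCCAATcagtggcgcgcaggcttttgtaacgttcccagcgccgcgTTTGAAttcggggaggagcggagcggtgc
The KIF20A window spans chr5:138178862-138179111 and holds 2 CCAAT matches, at -94 and -67 from the start, and no CHR match. That of CCNB2 spans chr15:59104896-59105145, with a CHR at -29 and CCAAT matches at -244, -120, -87 and -54. The MYBL2 window spans chr20:43666864-43667113, and that of PLK1 spans chr16:23678639-23678888, with a CHR at -29 and a CCAAT at -73.

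At 100 against 0 µg/ml, 12 of the 51 genes fell and none rose. These were CDC25B, CCNB1 and CCNB2 of mitotic entry, the kinesins KIF20A, KIF23 and KIF22, the kinetochore subunit SPC24, the spindle and cytokinesis genes NUSAP1, ANLN, PRC1 and DLGAP5, and the transcription factor MYBL2. The changes were small, from -17.0% to -6.38% on the scale of FPKM + 0.5. The 12 calls are 23.5% of the genes tested here, where 7.51% of all tested genes were called lower and 7.94% higher, 15.5% together. Because the genes were chosen with earlier results of these data known, no set test was made of these shares. The median log2 fold change of the 51 genes was -0.055, against -0.0037 for all tested genes, and 41 of 51 values were below 0, against 51.5% of all genes. In 19 of the 51 genes all 3 libraries at 100 µg/ml lay below all 3 at 0, against 16.9% of all tested genes. Each of the 12 called genes was among those 19. The reads behind them numbered 995 to 23293 per gene and library.

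**Figure D1:**
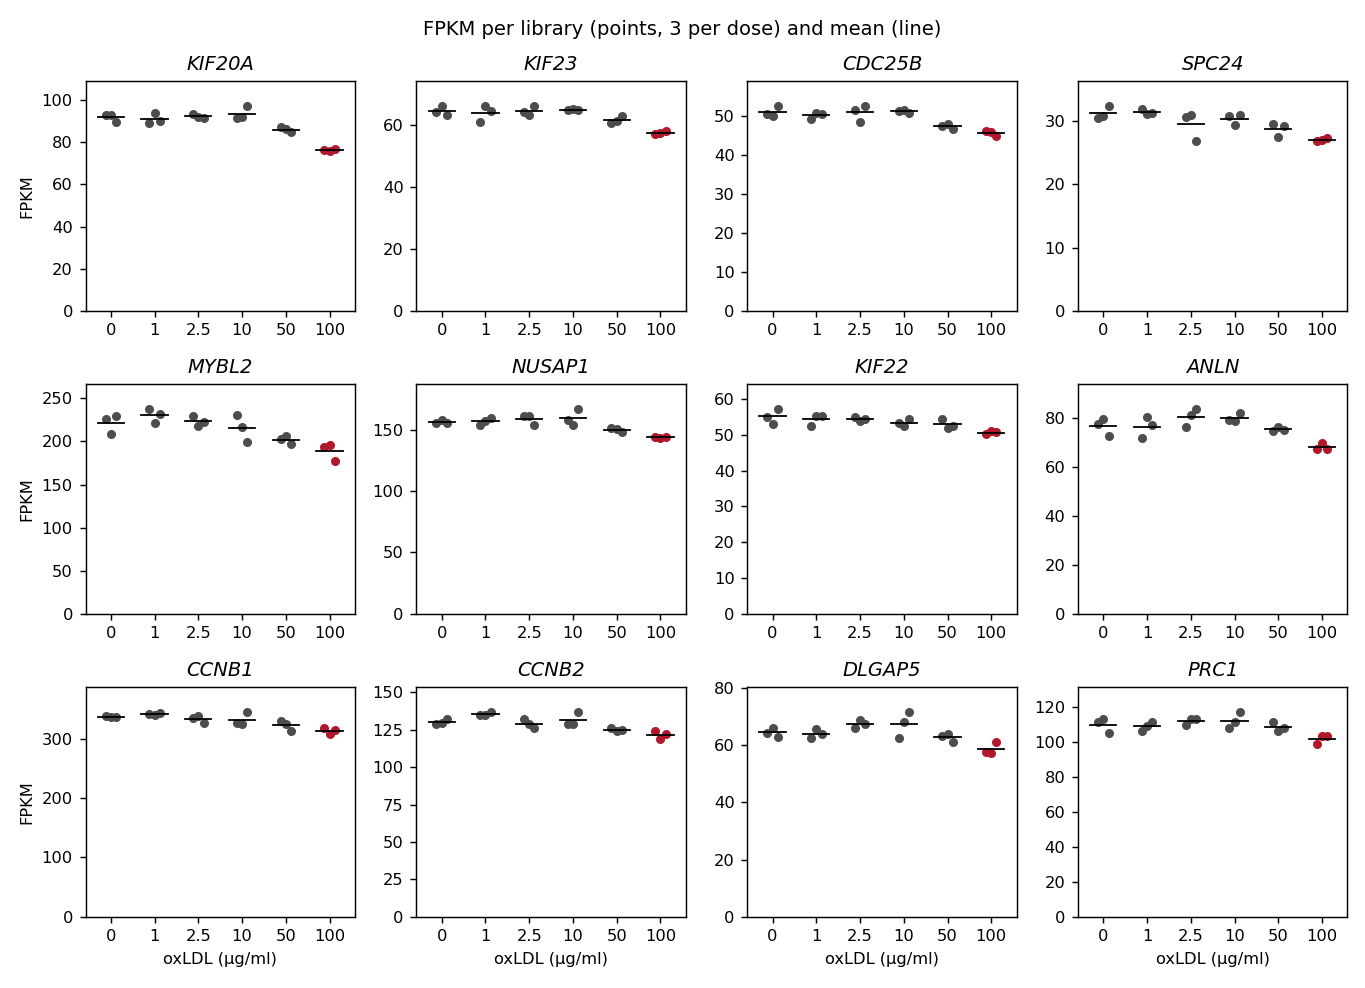
FPKM of the 12 genes called lower at 100 against 0 µg/ml oxLDL, with dose in µg/ml (evenly spaced categories) on the horizontal axis and FPKM from 0 on the vertical axis. Points are libraries, 3 per dose, lines are means, and red marks 100 µg/ml; in each gene the red points lie below all 3 points at 0 µg/ml.

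Among the mitotic cyclins, CDK1 and the CDC25 phosphatases, 3 of 6 genes fell at 100 against 0 µg/ml. CDC25B (chromosome 20, 3786951 to 3806115 in RefSeq on GRCh38.p14, as for all gene positions here), a phosphatase that removes inhibitory phosphates from CDK1, measured 50.6, 50.0 and 52.6 FPKM at 0 µg/ml, 51.5, 51.7 and 50.9 at 10, 47.5, 48.0 and 46.8 at 50 and 46.3, 46.0 and 45.1 at 100. The libraries at 0 and 10 overlap, and those at 50 and 100 lie below both. Its log2 fold change at 100 was -0.15 (SE 0.031, adjusted p = 0.00249), from 51.1 ± 1.4 to 45.8 ± 0.63 (SD, n = 3).

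CCNB1 (chromosome 5, 69167150 to 69178245) encodes cyclin B1, the main partner of CDK1 in mitosis, and had the second highest level of the 51 genes. It measured 338, 337 and 336 FPKM at 0 µg/ml, 326, 325 and 345 at 10, 330.2, 325 and 312 at 50 and 318, 307 and 315 at 100. The 3 control libraries were close together, and 1 library at 10 exceeded them. The log2 fold change at 100 was -0.10 (SE 0.029, adjusted p = 0.0197). For CCNB2 (chromosome 15, 59105146 to 59125045), which encodes the Golgi-associated cyclin B2, the values were 129, 129.7 and 132 FPKM at 0, 129, 129 and 137 at 10, 126, 124 and 125 at 50 and 124, 119 and 122 at 100. It had the smallest called decrease, -0.095 (SE 0.028, adjusted p = 0.0317), and the libraries at 50 and 100 were close to each other, with 1 at 50 equal to 1 at 100 to 3 digits. The other genes of the group did not pass the test. CDK1 itself, the catalytic subunit, was 101 ± 2.7 FPKM at 0 and 100.2 ± 2.8 at 100 (SD, n = 3), a log2 difference of -0.013 (95% interval -0.087 to 0.062). CCNA2, which encodes the cyclin of S phase and mitotic entry, was at -0.068 (adjusted p = 0.107), and the phosphatase gene CDC25C at -0.098 (adjusted p = 0.0973).

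None of the 4 mitotic kinases was called. PLK1, the polo-like kinase of mitotic entry and cytokinesis, measured 141 ± 2.9 FPKM at 0 and 139 ± 1.1 at 100 µg/ml (SD, n = 3), with a log2 difference of -0.017 (95% interval -0.081 to 0.048). AURKA, the centrosomal Aurora kinase, was 188 ± 1.3 and 188 ± 4.5 FPKM, a log2 difference of 0.0058 (95% interval -0.052 to 0.064). For both, the lower bound lies above the fitted value of every called gene. Those fitted values belong to genes picked by the threshold in these same data. Both intervals still overlap that of the called gene CCNB2 (95% interval -0.16 to -0.035), and differences between genes were not tested. AURKB, the kinase of the chromosomal passenger complex, gave -0.028 (95% interval -0.10 to 0.045), and the checkpoint kinase gene TTK gave 0.048 (95% interval -0.054 to 0.15).

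The 8 genes of the spindle checkpoint, the activators of the anaphase-promoting complex and anaphase had no call at 100 against 0 µg/ml. UBE2C, the ubiquitin-conjugating enzyme of that complex, had the highest mean of the 51 genes and was 337 ± 14 FPKM at 0 and 337 ± 7.2 at 100 (SD, n = 3). Its log2 difference was -0.0020 (95% interval -0.087 to 0.083). CDC20, which activates the complex, was at -0.043 (95% interval -0.14 to 0.056), and PTTG1, which encodes the separase inhibitor securin and has retrogene copies that could share its reads, at -0.029 (95% interval -0.13 to 0.071). The checkpoint genes BUB1, BUB1B and MAD2L1 had log2 differences of -0.029, -0.065 and 0.022. BUB3, the checkpoint scaffold, was the only one of the 51 genes with all 3 libraries at 100 above all 3 at 0, with a log2 difference of 0.078 that did not pass the test (adjusted p = 0.224). ESPL1, which encodes separase, had the second lowest mean level, 1.38 FPKM, and gave 0.12 with a wide 95% interval of -0.24 to 0.49.

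Of the 9 kinesins tested, 3 fell at 100 µg/ml. KIF20A (chromosome 5, 138179112 to 138187723), the motor that carries the passenger complex to the central spindle, measured 93.2, 93.0 and 89.7 FPKM at 0 µg/ml, 91.7, 91.9 and 97.5 at 10, 87.2, 86.3 and 84.8 at 50 and 76.4, 75.7 and 76.7 at 100. The libraries at 50 lie below all those at 0 and 10, and the libraries at 100 lie lower again, with no overlap between 50 and 100. The log2 fold change at 100 against 0 was -0.27 (SE 0.029, adjusted p = 8.9e-06), from 92.0 ± 1.9 to 76.2 ± 0.50 FPKM (SD, n = 3). The promoter printed for it has no CHR match in the spellings searched, which does not show that it lacks the element. In the GENCODE annotation 5.1% of its exon bases overlap BRD8 and CDC23 on the other strand, and the library kit does not mark strand. Those neighbours had log2 differences of -0.033 (BRD8, adjusted p = 0.698) and -0.057 (CDC23, adjusted p = 0.473).

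KIF23 (chromosome 15, 69414349 to 69448427) encodes a subunit of the centralspindlin complex of cytokinesis. It measured 63.9, 66.0 and 63.0 FPKM at 0 µg/ml, 64.8, 65.0 and 64.7 at 10, 60.5, 61.3 and 62.9 at 50 and 57.1, 57.2 and 57.8 at 100. The libraries at 100 differed from each other by less than 1 FPKM and lay below all others shown. The log2 fold change was -0.16 (SE 0.031, adjusted p = 0.00159). KIF22 (chromosome 16, 29790751 to 29805385), a chromosome-bound kinesin, measured 55.1, 53.0 and 57.3 FPKM at 0, 53.2, 52.6 and 54.5 at 10, 54.4, 51.9 and 52.4 at 50 and 50.2, 51.0 and 50.7 at 100. The groups at 0, 10 and 50 overlap, and the log2 fold change at 100 against 0 was -0.12 (SE 0.031, adjusted p = 0.0139). The spindle motor gene KIF11, whose product pushes the poles apart, was at -0.070 (adjusted p = 0.328). KIF2C, a microtubule depolymerase, was at -0.0048 (95% interval -0.070 to 0.060), and KIF14 was the only kinesin above 0, at 0.096 (95% interval -0.046 to 0.24).

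Among the 9 centromere and kinetochore genes tested, SPC24 alone was called. SPC24 (chromosome 19, 11145493 to 11155782) encodes a subunit of the NDC80 complex, which binds spindle microtubules. It measured 30.6, 30.9 and 32.5 FPKM at 0 µg/ml, 30.8, 29.5 and 31.0 at 10, 29.6, 27.6 and 29.3 at 50 and 26.9, 27.0 and 27.3 at 100, and the libraries at 100 lay below all others shown. The log2 fold change was -0.21 (SE 0.045, adjusted p = 0.00433), from 31.4 ± 1.0 to 27.0 ± 0.19 FPKM (SD, n = 3). As for KIF20A, a small part of its exon bases is shared with the other strand, and the part of those bases in the SPC24 value was not tested. The other 3 subunits of the complex did not pass the test. NDC80 was at -0.12 (adjusted p = 0.162), NUF2 at -0.055 (adjusted p = 0.357) and SPC25, the lowest of the 51 genes at 0.937 FPKM, at 0.053 (adjusted p = 0.798). CENPA, the histone H3 variant that marks the centromere, was at -0.040 (95% interval -0.12 to 0.045), and 7.0% of its exon bases overlap SLC35F6 on the same strand.

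Of the 9 spindle and cytokinesis genes, 4 fell. NUSAP1 (chromosome 15, 41332881 to 41381046), a microtubule-bundling protein gene, measured 155, 158 and 155 FPKM at 0 µg/ml, 158, 154 and 167 at 10, 151, 150.4 and 148 at 50 and 144, 143 and 144 at 100. Its libraries at 50 lay between those at 0 and 100 with no overlap, and the log2 fold change at 100 was -0.11 (SE 0.030, adjusted p = 0.0137). ANLN (chromosome 7, 36389862 to 36453791) encodes anillin, the scaffold of the contractile ring. It measured 77.6, 79.3 and 72.5 FPKM at 0, 78.9, 78.8 and 82.0 at 10, 74.8, 76.4 and 75.1 at 50 and 67.4, 69.9 and 67.4 at 100, so that 0 and 50 overlap and 100 lies below both. The log2 fold change was -0.16 (SE 0.043, adjusted p = 0.0159).

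DLGAP5 (chromosome 14, 55148135 to 55191585), which stabilizes kinetochore fibres, measured 64.2, 66.1 and 62.9 FPKM at 0 µg/ml, 62.6, 68.0 and 71.6 at 10, 63.2, 63.8 and 61.1 at 50 and 57.7, 57.1 and 61.0 at 100. The highest library at 100 was just under the lowest at 50, and the log2 fold change against 0 was -0.14 (SE 0.041, adjusted p = 0.0344). PRC1 (chromosome 15, 90966040 to 90994535), the cross-linker of antiparallel microtubules in the central spindle, measured 111, 113 and 105 FPKM at 0, 108, 111 and 117 at 10, 111, 106 and 108 at 50 and 98.4, 103 and 103 at 100. Its log2 fold change was -0.11 (SE 0.035, adjusted p = 0.0401), the weakest of the 12 calls by adjusted p. TPX2, which activates AURKA on the spindle, was not called at 100 against 0 (-0.063, adjusted p = 0.126), nor was ASPM, a spindle pole protein gene (0.0061, adjusted p = 0.973).

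MYBL2 (chromosome 20, 43667114 to 43716482) encodes B-MYB, the transcription factor that joins MuvB to activate many of the genes described here. It measured 226, 209 and 229 FPKM at 0 µg/ml, 230.3, 217 and 199.6 at 10, 203, 206 and 197 at 50 and 193, 196 and 177 at 100. The spread within a dose was wide, yet all libraries at 50 and 100 lay below all at 0. The log2 fold change at 100 was -0.23 (SE 0.051, adjusted p = 0.00507), from 221 ± 11 to 188 ± 10 FPKM (SD, n = 3). FOXM1, the other transcription factor of the set, was at -0.0063 (95% interval -0.077 to 0.064). Of its exon bases 15.9% overlap ITFG2 on the other strand, the largest such share among the 51 genes. The part of those bases in the FOXM1 value was not tested. ITFG2 was at 4.94 FPKM at 0 and 5.07 at 100 µg/ml, where FOXM1 was at 45.5 and 45.3. The proliferation marker gene MKI67 was at -0.022 (95% interval -0.15 to 0.11), and TOP2A, the topoisomerase that untangles sister chromatids, at -0.13 (adjusted p = 0.0727). The passenger genes BIRC5, which encodes survivin, and INCENP were at -0.074 (adjusted p = 0.13) and 0.049 (adjusted p = 0.652).

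**Figure D2:**
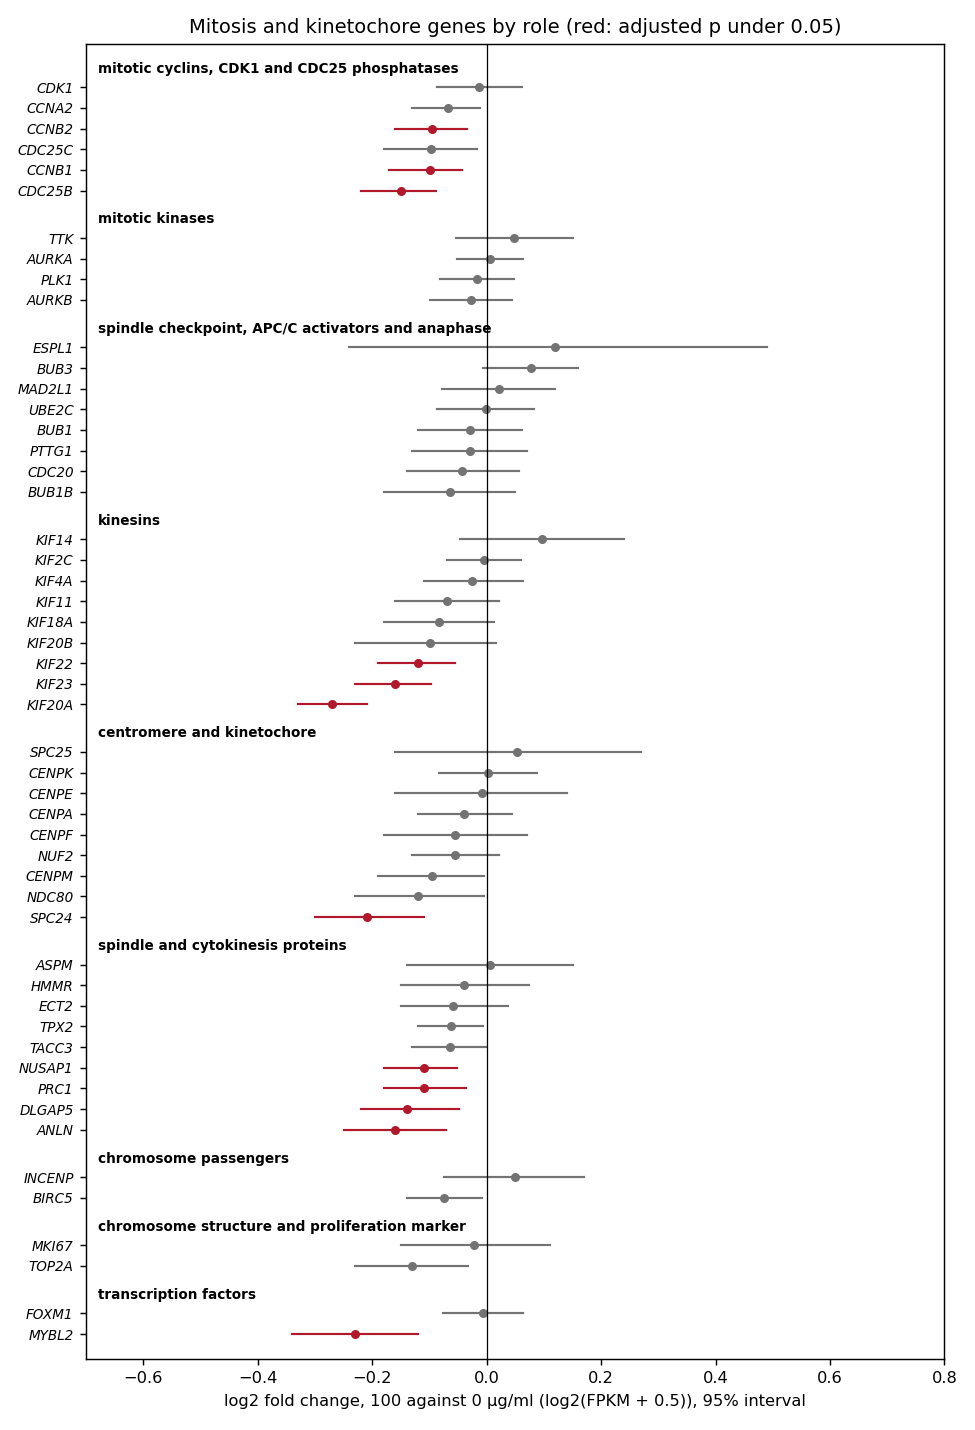
Log2 fold change at 100 against 0 µg/ml oxLDL (horizontal axis, on log2(FPKM + 0.5)) for the 51 genes, in rows grouped by role. Points are limma estimates, bars are 95% intervals and red marks an adjusted p under 0.05; the 12 red points lie below 0, from -0.27 for KIF20A to -0.095 for CCNB2, and ESPL1 has the widest bar.

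The 12 calls at 100 against 0 µg/ml were not equally firm. KIF20A, KIF23, CDC25B, SPC24 and MYBL2 were called in all 19 alternative settings. The others were lost in at least 1 setting: NUSAP1 in 1, KIF22 in 2, ANLN in 4, CCNB1 in 5, DLGAP5 in 6, and CCNB2 and PRC1 in 8 each, with adjusted p of at most 0.154. Leaving out 1 library of a group left 6 to 10 calls, with 6 without control replicate 2 and 7 without control replicate 1. With the promoters counted, 7 of the 12 called genes (58.3%) and 23 of the 31 uncalled genes with a promoter (74.2%) had a CHR match. CCAAT matches were present in 9 of 12 (75.0%) and 24 of 31 (77.4%). No test was made of these shares, and those for the CHR leave out any spelling other than TTTGAA and TTCGAA.

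At 10 against 0 µg/ml none of the 51 genes was called by limma, where 0.0412% of all tested genes were. At an unadjusted p under 0.05 there were 7 of these genes, namely CCNA2, BUB1, BUB1B, TPX2, INCENP, FOXM1 and HMMR, against 9.77% of all tested genes, and the limma-voom alternative on recovered reads called none either. The median log2 difference was 0.034, against 0.016 for all genes, and 14 of 51 values were below 0, against 42.2% of all genes. All 3 libraries at 10 lay above all 3 at 0 in 5 genes (CCNA2, KIF11, TPX2, MKI67 and FOXM1), against 10.1% of all tested genes, and below in 1 (CENPM), against 6.84%. At the lower doses of 1 and 2.5 µg/ml no gene of the table was called by limma (percent called 0 in both). At an unadjusted p under 0.05 there were 0 and 1 of these genes, and 365 (3.01%) and 531 (4.38%) of all tested genes.

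At 50 against 0 µg/ml CDC25B was the only one of the 51 genes called, with a log2 fold change of -0.10 (SE 0.031, adjusted p = 0.0496), where 3.69% of all tested genes were called lower and 3.78% higher, 7.47% together. This call was close to the threshold, held in 6 of 19 alternative settings, and was lost whichever of the 6 libraries was left out. The median of the 51 genes was 0.019, against 0.0041 for all genes, and 23 of 51 values were below 0, against 48.2%. All 3 libraries at 50 lay below all 3 at 0 in 8 genes (CCNB1, CCNB2, CDC25B, KIF20A, KIF23, SPC24, NUSAP1 and MYBL2), against 13.3% of all tested genes. They lay above in 3 genes (PLK1, AURKA and BUB3), against 14.9%. The share of genes below is near the background.

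The 50 and 100 µg/ml libraries were then compared with each other. KIF20A fell by 0.17 on the log2 scale (SE 0.029, adjusted p = 0.00784) and was the only one of the 51 genes called, where 0.280% of all tested genes were called and 0.0577% called lower. Without 50 µg/ml replicate 1 or 2 it was not called, and the highest adjusted p over the alternatives was 0.0547. The median of the 51 genes was -0.056, against -0.006 for all genes, and 47 of 51 values were below 0, against 53.3%. In 22 genes all 3 libraries at 100 lay below all 3 at 50, and in none above, against 8.33% and 6.74% of all tested genes.

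Against 10 µg/ml, 100 µg/ml gave more calls: 18 of the 51 genes fell (35.3%) and none rose, where 6.78% of all tested genes were called lower and 6.27% higher, 13.0% together. The comparison shares its 100 µg/ml libraries with that against 0, so its calls are not independent of it. Of the 12 genes called against 0, 10 were among the 18, the exceptions being KIF22 (-0.076, adjusted p = 0.12) and CCNB1 (-0.083, adjusted p = 0.0691). The other 8 were CCNA2, CDC25C, the checkpoint kinase-like gene BUB1B, the kinesins KIF11, KIF18A and KIF20B, TPX2 and TOP2A. Of these 8, KIF20B (adjusted p = 0.0492) was lost in 8 of 18 alternative settings, KIF18A in 7, CDC25C in 5, and BUB1B and KIF11 in 4 each. CCNA2, TPX2 and TOP2A were called in all 18. Of the 10 shared genes, SPC24 was lost in 6, CCNB2 and MYBL2 in 5 each, PRC1 in 3 and DLGAP5 in 1, and the rest in none. KIF20A fell most, by 0.30 on the log2 scale (adjusted p = 4.22e-06), and at 50 against 10 µg/ml it was the only gene of the set called, at -0.12 (adjusted p = 0.0347), where 1.22% of all tested genes were called lower and 2.61% in either direction. This call held in 9 of 18 alternative settings and was lost whichever of the 6 libraries was left out. In that comparison 40 of 51 values were below 0, against 54.6% of all genes. ANLN was at -0.23 (adjusted p = 0.0024), TOP2A at -0.22 (adjusted p = 0.00619) and DLGAP5 at -0.20 (adjusted p = 0.00463). The 8 genes called here and not against 0 had smaller differences against 0: CCNA2, for example, was 62.8 ± 0.66 FPKM at 0, 66.2 ± 0.67 at 10 and 59.9 ± 0.22 at 100 (SD, n = 3), and TOP2A was 140.2 ± 6.3, 149 ± 5.8 and 128 ± 3.6. The median of the 51 genes was -0.11, against -0.02 for all genes, 47 of 51 values were below 0, against 56.4%, and in 30 genes all 3 libraries at 100 lay below all 3 at 10, against 18.3%. Of the exon bases, 9.1% of CCNA2 overlap EXOSC9, 8.8% of CDC25C overlap FAM53C and 1.3% of KIF18A overlap METTL15 on the other strand, so those reads cannot be assigned with certainty.

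**Figure D3:**
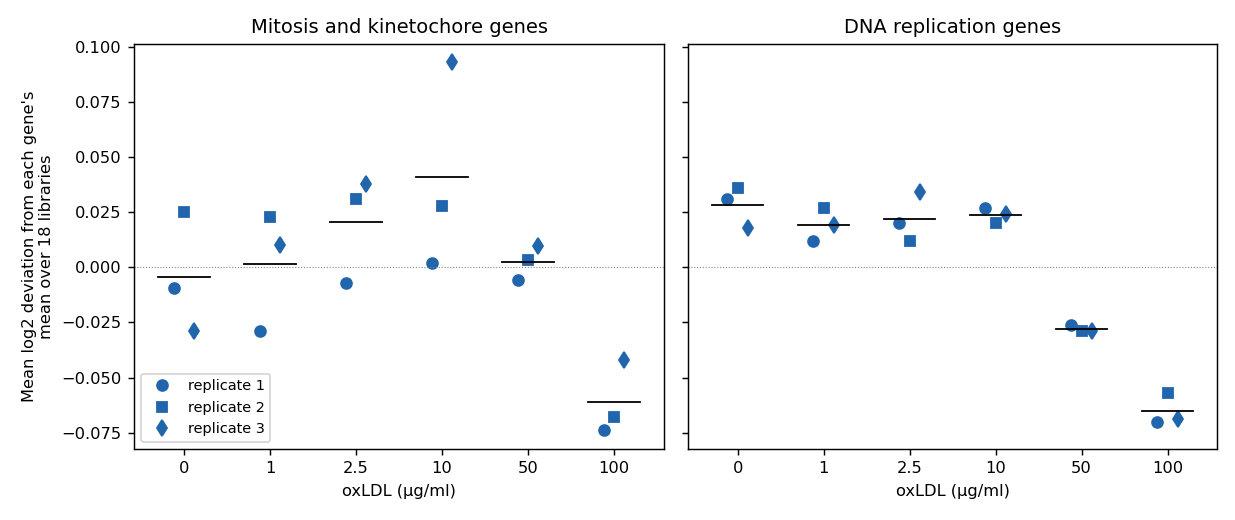
Mean log2 deviation of a library from each gene's mean over 18 libraries (vertical axis) by oxLDL dose (horizontal axis, µg/ml), for the 51 mitosis and kinetochore genes at left and 48 DNA replication genes at right. Symbols are replicates and lines are dose means; the libraries at 100 µg/ml are lowest in both panels, and 10 µg/ml replicate 3 stands apart at 0.093 at left only.

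Part of the comparison with 10 µg/ml rests on 1 library. The mean deviation of the 51 genes from their own mean log2 level was 0.093 in 10 µg/ml replicate 3, where 49 of 51 genes were above their mean, and 0.002 and 0.028 in replicates 1 and 2. At 0 µg/ml it was -0.0093, 0.025 and -0.029, at 50 it was -0.0059, 0.0035 and 0.0098, and at 100 it was -0.074, -0.068 and -0.042. The 3 libraries at 100 were the lowest of the 18. Without 10 µg/ml replicate 3, 10 of the 51 genes were called at 100 against 10, the median was -0.089, and the median at 10 against 0 went from 0.034 to 0.013. Without 100 µg/ml replicate 3 there were 11 calls. The 48 DNA replication and S phase genes did not set 10 µg/ml replicate 3 apart: their mean deviation was 0.024 there and 0.027 and 0.020 in replicates 1 and 2.

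A slope on log2(dose + 1) over all 18 libraries was called negative for 10 of the 51 genes and positive for 1, where 12.6% and 13.0% of all tested genes were, 25.6% together. The 10 were MYBL2, KIF20A, CDC25B, SPC24, CCNB1, KIF23, CCNB2, KIF22, NUSAP1 and NDC80. MYBL2 had the steepest slope, -0.037 per unit of log2(dose + 1) (adjusted p = 0.000233), followed by KIF20A at -0.033 (adjusted p = 0.000697). BUB3 was the positive one, at 0.014 (adjusted p = 0.0254), and it was no longer called once the trend of all genes with length was removed, when 12 slopes were called negative and 0 positive.

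**Figure D4:**
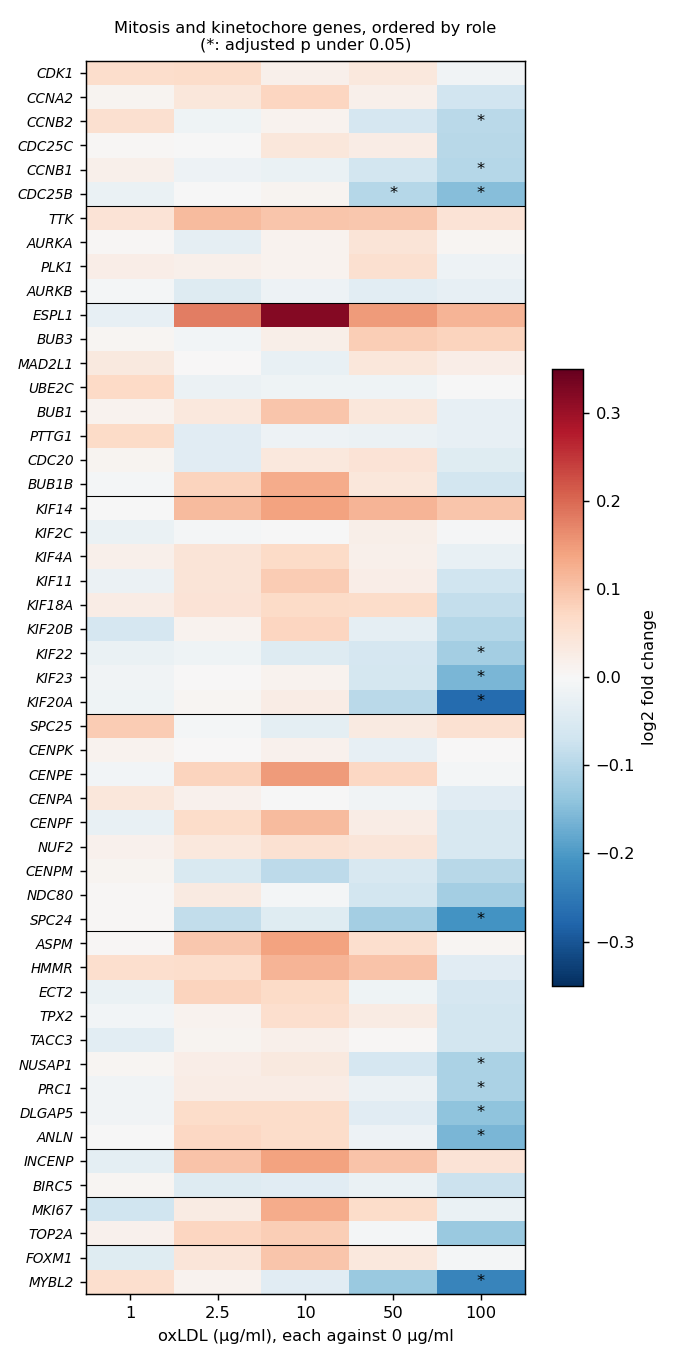
Log2 fold change of each of the 51 genes (rows, in blocks by role) at 1, 2.5, 10, 50 and 100 µg/ml, each against 0 µg/ml (columns). Red is higher, blue is lower and a star marks an adjusted p under 0.05; the stars are CDC25B at 50 µg/ml and the 12 called genes at 100 µg/ml.

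The differences varied with gene length. Over the 51 genes, Spearman's rho between the log2 difference and the gene length implied by the FPKM values was 0.58 at 10 against 0 µg/ml, 0.39 at 50 against 0 and 0.30 at 100 against 0. Over all 12127 tested genes it was 0.38, 0.18 and 0.07. For 100 against 10 it was -0.27 (all genes -0.19), and for 100 against 50 it was -0.04 (all genes -0.14). These are descriptions over genes measured in the same libraries. Of the 25 genes longer than the median of 3398 bases, 3 were called at 100 against 0, and of the 26 others 9 were. When the trend of all genes with length was removed from each library, 13 of the 51 genes were called at 100 against 0 and 20 at 100 against 10, and the mean deviation of 10 µg/ml replicate 3 was 0.088.

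**Figure D5:**
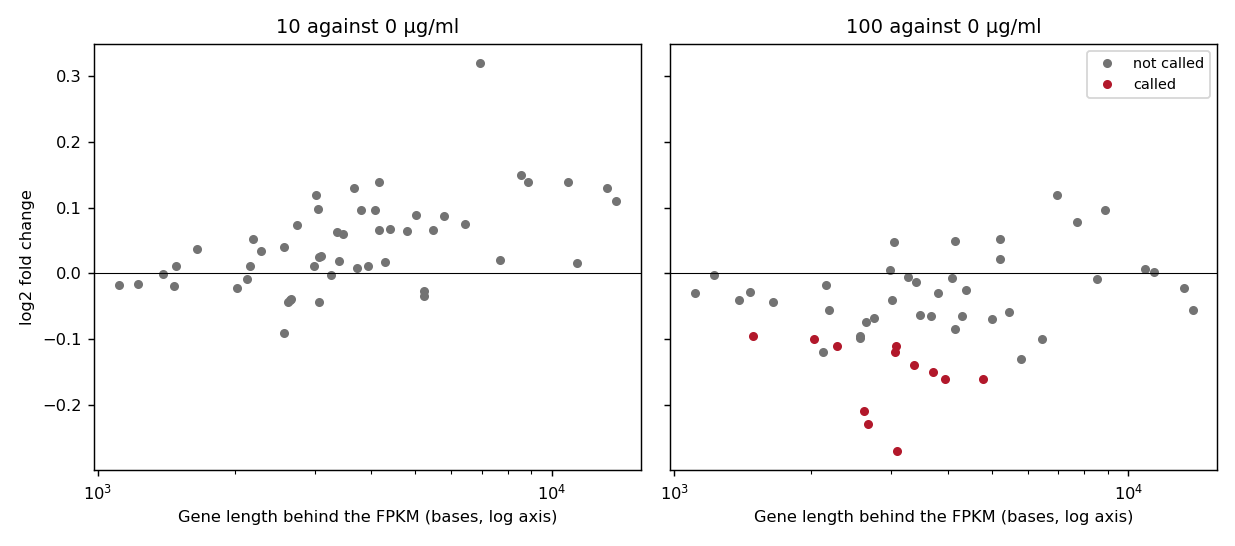
Log2 fold change (vertical axis) against gene length (horizontal axis, bases, log scale) for the 51 genes at 10 against 0 µg/ml (left) and 100 against 0 µg/ml (right). Each point is a gene and red marks a called gene; longer genes tend to lie higher, with Spearman's rho of 0.58 at left and 0.30 at right.

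Other genes of cell division were read from lists at 100 against 0 µg/ml, where 7.51% of all tested genes were called lower and 7.94% higher, with a median of -0.0037. These lists too were chosen with earlier results of these data known. Of 36 other kinetochore and centromere genes, 7 fell (19.4%) and none rose, with a median of -0.046, among them ZW10 (-0.16, adjusted p = 0.00266), CENPH (-0.21, adjusted p = 0.00293), SPDL1 (-0.16, adjusted p = 0.00457) and DSN1 (-0.14, adjusted p = 0.00539). ZW10 and SPDL1 act in bringing dynein to kinetochores, CENPH belongs to the inner kinetochore and DSN1 to the Mis12 complex, which carries the NDC80 complex. Of 42 other spindle, centrosome and cytokinesis genes, 8 fell (19.0%) and none rose, with a median of -0.056, led by the augmin subunits HAUS7 (-0.28, adjusted p = 0.0019), HAUS4 (-0.25, adjusted p = 0.00291) and HAUS5 (-0.25, adjusted p = 0.00983), and by CKAP2L (-0.16, adjusted p = 0.0178). Of 18 genes of the anaphase-promoting complex 2 fell, ANAPC15 (-0.24, adjusted p = 0.00619) and ANAPC5 (-0.11, adjusted p = 0.0214), and of 20 condensin and cohesin genes 1 fell, the condensin gene NCAPH (-0.13, adjusted p = 0.00621). None of either list rose, and their shares of 11.1% and 5.0% lower are near that of all genes or below it.

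Genes outside mitosis moved as well. Of 48 DNA replication and S phase genes, 14 fell at 100 against 0 µg/ml (29.2%, against 7.51% of all tested genes) and none rose, with a median of -0.082. The helicase genes MCM7 (-0.59, adjusted p = 1.6e-09) and MCM6 (-0.20, adjusted p = 0.00336), the DNA ligase gene LIG1 (-0.25, adjusted p = 0.00134) and the maintenance methylation factor UHRF1 (-0.19, adjusted p = 0.00104) were among them. At 50 against 0, 4 of these genes fell and 1 rose, where 3.69% of all tested genes were called lower and 3.78% higher. Their mean deviation was -0.026 to -0.029 in the 50 µg/ml libraries and -0.057 to -0.070 in those at 100. Of 26 regulators of mitotic entry and exit, 2 fell, ENSA (-0.15, adjusted p = 0.00293) and CDKN3 (-0.18, adjusted p = 0.00996), and 2 rose, the phosphatase subunits PPP2R2D (0.24, adjusted p = 0.00109) and PPP2R2A (0.16, adjusted p = 0.0184). The list's share of 7.69% in each direction is near that of all genes at 100 against 0 (7.51% lower and 7.94% higher). Of 17 G1 cyclins and CDK inhibitors tested, 2 fell, CDKN2B (-0.63, adjusted p = 0.000314) and CDKN1B (-0.23, adjusted p = 0.00266), and 3 rose. CDKN1A, which encodes the CDK inhibitor p21, was 48.7 ± 3.2 FPKM at 0 and 68.5 ± 1.0 at 100 (SD, n = 3), with a log2 fold change of 0.49 (adjusted p = 1.73e-05), and the cyclin D genes CCND1 (0.34, adjusted p = 0.00522) and CCND3 (0.14, adjusted p = 0.00218) were the others that rose.

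Markers of another cell type are given over the same doses, while the microglia list is not summed here. The summed level of the 9 pericyte and fibroblast markers with a row, of 12 in the list, was 1906 to 2025 FPKM at 0, 1846 to 2089 at 10, 1734 to 1808 at 50 and 1588 to 1700 at 100 µg/ml. Of the 8 of these that passed the filter, 4 fell at 100 against 0 (THY1, COL1A1, PDGFRB and FN1) and none rose. Of all tested genes, 7.51% were called lower and 7.94% higher in that comparison. The part of these markers in the values of the mitotic genes was not tested. The 51 genes made up 1.01% to 1.13% of the summed FPKM of a library, lowest at 100 µg/ml.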

How the data were processed

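The 18 HMC3 libraries were placed in 6 dose groups of 3 by the treatment in the labels. The deposited unit is FPKM, fragments scaled by gene length and library total by the authors, in 1 table of 13992 genes. The build hg38 and the tools DESeq2, featureCounts and HISAT2 2.0.5 are named in the submitters' processing notes, with no role or order, and per the labels' protocols the kit was NEBNext Ultra, which does not mark strand. Strand handling in counting is not given in the sources used here.

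A gene was tested if 3 or more libraries reached an FPKM of 0.5 (12127 genes, with 1865 left out). limma 3.58.1 in R 4.3.3 was fitted to log2(FPKM + 0.5), a scale that understates changes of low genes, with a mean for each dose, the eBayes trend and 12 residual degrees of freedom. The two-sided p of each comparison was adjusted by Benjamini-Hochberg over all tested genes, and a call is an adjusted p under 0.05. The slope on log2(dose + 1) had 16 residual degrees of freedom. Lengths and whole reads were recovered from the FPKM steps, within 0.05 reads in every library for 13989 genes (99.98%), and served for depth, for gene length and for 1 alternative. Of 340 single-exon genes compared, 69.7% had a recovered length equal to the RefSeq length, so some recovered lengths may differ from the true ones. Depth figures cover counting error only, as reads are not molecules. The fit was tested on simulated data. The members and lists were chosen with earlier results of these data known. Named were all called members, fixed representatives of each role, the highest and lowest members by FPKM, and up to 4 called genes of each other list by adjusted p, and other genes were named after their values were seen. Alternatives were another pseudocount, filters, scalings, variance models, limma-voom, fewer doses, pooled low doses, a replicate block and leaving out each library. Removing the length trend was added after seeing the data. Gene positions and promoters are from RefSeq on GRCh38.p14, and exon overlaps are from GENCODE v29. Some values that touch these genes are not reported here.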

Additional observations from a re-analysis of the deposited data

How the results depend on the processing

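Of 3774 values of 34 named genes under alternatives, 3636 kept their direction and side of the threshold, 107 lost the call, 31 gained one and 0 reversed, while 133 uncalled values changed sign. The single call at 50 against 0 µg/ml became 0 with a pseudocount of 0.1, median-of-ratios scaling, no variance trend, robust eBayes, only the doses compared, the replicate block, or any 1 library left out (0 to 0), 2 with FPKM of at least 1 in all libraries or the length trend removed, and 4 with 0, 1 and 2.5 µg/ml pooled as reference. That at 50 against 10 became 0 with median-of-ratios scaling, no variance trend, only the doses compared or 1 library left out (0 to 0), 4 with quantile normalization and 3 with the length trend removed. At 100 against 10 there were 11 calls with only the doses compared, 14 with median-of-ratios scaling, 24 with quantile normalization and 21 with limma-voom, and at 100 against 50 none with only the doses compared (0). The causes were not tested. Leaving out 1 library gave 6 to 10 calls at 100 against 0, 10 to 18 at 100 against 10, 0 to 1 at 100 against 50, and a median of -0.14 to -0.089 at 100 against 10. At 100 against 0 there were 11 calls under either scaling, 13 with limma-voom and 18 with the pooled reference. Same-numbered libraries did not all correlate over 0.1 in any comparison. Every library correlated best with its own number at 100 against 50 (0.16, 0.07 and 0.16) and in no other comparison. These values do not settle whether the numbers mark a pairing. With the replicate block there were 13 calls at 100 against 0, 22 at 100 against 10, 1 at 50 against 10, 1 at 100 against 50 and 11 slopes. The depth of 72 reads in the lowest library and gene makes small changes of SPC25 and ESPL1 hard to detect.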
